A study of Mus musculus with 6 samples.

Results

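Sterol and fatty acid synthesis is represented here by 31 genes: the enzymes that turn acetyl-CoA into mevalonate and cholesterol (18 genes, called the sterol arm), the regulators of the SREBP transcription factors and of sterol handling (7 genes), and the enzymes that make and elongate fatty acids (6 genes, the fatty acid arm). The members were given by name rather than by a threshold on measured values, and all 31 were found among the 21965 genes of the deposited table. Mouse samples labelled as lung tissue gave bulk RNA libraries, 3 under the name Aa-flox and 3 under Aa-cko. Those names spell out neither Aa nor the deleted gene, and no Cre driver, strain, age, sex or treatment is given. The title of the series names vitamin E, allergic airway inflammation, ILC2 ferroptosis and Lkb1, and the comparison set the libraries named cko against their floxed counterparts.

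Cells build cholesterol from acetyl-CoA. The first steps lead to mevalonate, a short run of kinases and a decarboxylase make the isoprene unit, and squalene made from it is closed to lanosterol and trimmed to cholesterol. The same acetyl-CoA, released from citrate by Acly, feeds fatty acid synthesis through acetyl-CoA carboxylase and fatty acid synthase. SREBP2, the product of Srebf2, mainly drives the sterol genes, and SREBP1, the product of Srebf1, mainly the lipogenic ones. Both are held in the endoplasmic reticulum by SCAP and the INSIG proteins while sterols are plentiful. AMPK, the kinase that LKB1 activates, is known to inhibit acetyl-CoA carboxylase by phosphorylation.

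Levels are FPKM, fragments scaled to gene length and to mapped fragments, so genes can be compared with each other. Depth read from the spacing of low values was about 14200000 to 17440000 fragments per library, an approximate figure since 44.1 to 47.2% of low values came out whole within 0.1 fragment. Stk11, the gene of LKB1, read 64.1, 55.8 and 51.8 FPKM in Aa-flox and 62.7, 61.7 and 53.7 FPKM in Aa-cko. The groups overlapped (limma adjusted p = 0.721), so this gene does not check the labels, and the directions below are those of the libraries as labelled. The type 2 alveolar cell marker Sftpc read 2.23 to 4.58 FPKM over all libraries, a low level for a gene that abounds in whole lung. Whether replicates were different animals is not stated, so the p-values reflect the spread among 3 libraries a group, which may be technical.

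In Aa-cko 6 of the 18 sterol arm genes were higher and 12 did not pass, while the fatty acid arm held 1 call in each direction. Differences were tested on log2(FPKM + 1) with limma over 10849 genes, and a gene is called at an adjusted p under 0.05. Of the 31 members 30 passed the filter of at least 1 FPKM in at least 3 libraries; Me1 did not. Over the 30 tested members 8 (26.7%) were higher and 3 (10%) lower in Aa-cko, against 19.2% higher and 23.2% lower over all tested genes. That split, 2087 genes higher and 2515 lower, turned with the scaling. With upper quartile scaling 2714 were higher and 1730 lower. With each library scaled to the same sum 1621 were higher and 2821 lower, of 11575 tested. The sterol arm then held 9 and 4 called rises. The FPKM ranges of the groups did not overlap for 10 members that were higher and 4 that were lower, against 23.8% and 29.6% of all tested genes. No member changed by as much as 1 in log2(FPKM + 1), a scale that understates low genes. With a pseudocount of 0.1 the log2 fold change of Elovl6 was 1.08. In the sterol arm 0 genes were lower, 1 of 7 regulators was higher and 2 lower, and 1 of 5 tested fatty acid genes was higher and 1 lower. The median log2 fold change was 0.24 in the sterol arm, -0.17 in the regulators and -0.21 in the fatty acid arm, beside -0.05 over all tested genes.

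**Figure D1:**
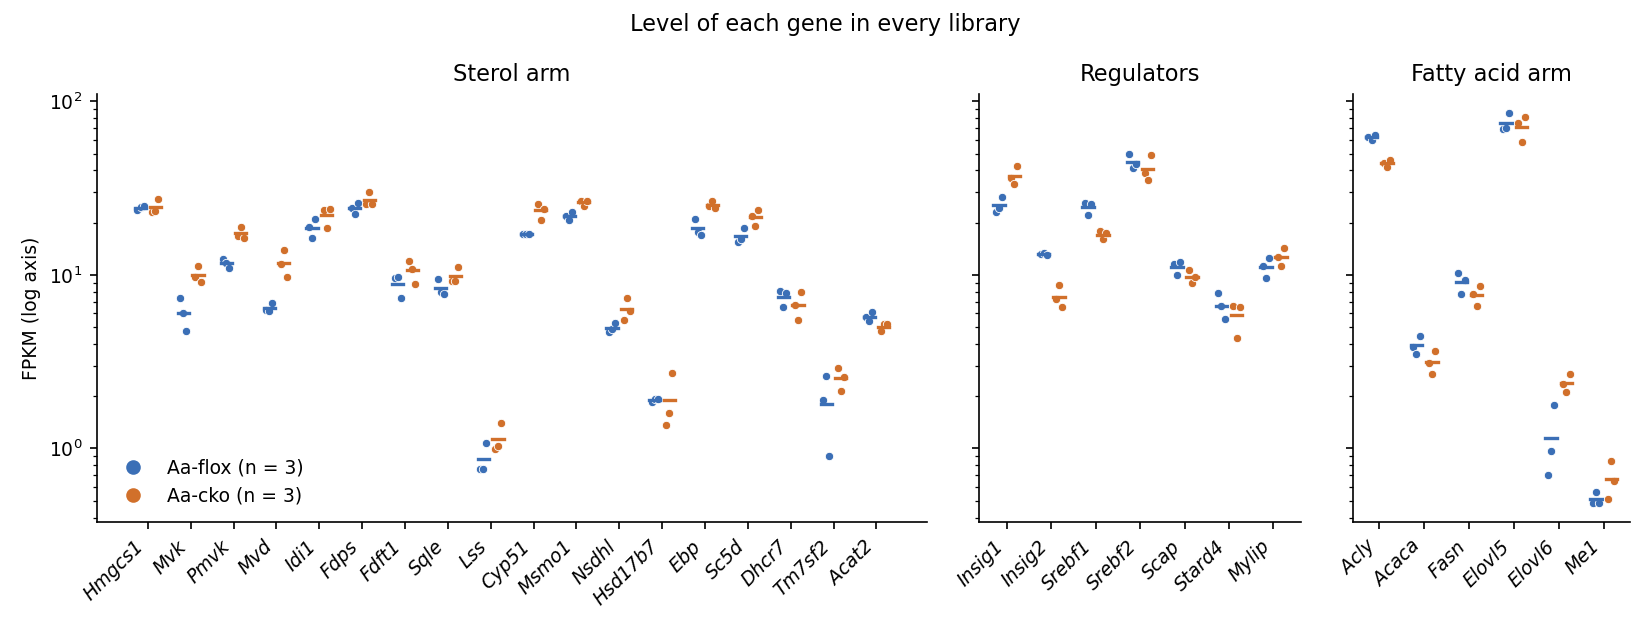
FPKM (log axis) of all 31 genes in each library, by arm; each point is 1 library and each short line a group mean of 3. Mvk, Pmvk, Mvd, Cyp51, Ebp, Sc5d and Insig1 lie wholly above the Aa-flox points in Aa-cko, and Insig2, Srebf1 and Acly wholly below.

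Mvk, Pmvk and Mvd encode the 3 consecutive enzymes that turn mevalonate into isopentenyl diphosphate, and all were higher in Aa-cko. Mvk, mevalonate kinase, lies on chromosome 5 from 114444269 to 114460591 (plus strand, GRCm38). It read 7.37, 6.05 and 4.75 FPKM in Aa-flox and 9.66, 11.3 and 9.15 FPKM in Aa-cko. Every Aa-cko library was above every Aa-flox library, by 1.66-fold between the means (log2 0.66 ± 0.16 SE, limma adjusted p = 0.00832). Pmvk, phosphomevalonate kinase, on chromosome 3 from 89454541 to 89469013 (plus strand), read 12.3, 11.7 and 11 FPKM in Aa-flox and 16.7, 18.9 and 16.4 FPKM in Aa-cko. Its groups were also apart (1.48-fold, log2 0.53 ± 0.11, limma adjusted p = 0.00455). Mvd, the decarboxylase that ends this run, on chromosome 8 from 122433601 to 122443422 (minus strand), had the largest log2 fold change of the sterol arm. It read 6.24, 6.20 and 6.92 FPKM in Aa-flox and 11.5, 14.0 and 9.66 FPKM in Aa-cko. The Aa-cko values spread more widely than the Aa-flox values without reaching them (1.82-fold, log2 0.76 ± 0.14, limma adjusted p = 0.00261). These calls held in every alternative tried, with log2 fold changes of 0.52 to 0.79 for Mvk, 0.47 to 0.57 for Pmvk and 0.64 to 0.88 for Mvd when single libraries were left out.

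The steps before these gave no call. Acat2, a cytosolic thiolase that joins acetyl-CoA units, read 5.72, 5.39 and 6.11 FPKM in Aa-flox and 4.72, 5.18 and 5.18 FPKM in Aa-cko. Its ranges were apart but close, and it did not pass (log2 -0.16, 95% interval -0.43 to 0.11). The mouse genome holds a near copy, Acat3, so the value is uncertain where reads were shared. Hmgcs1, HMG-CoA synthase, read 23.7, 24.6 and 25.0 FPKM in Aa-flox and 23.0, 23.4 and 27.4 FPKM in Aa-cko. The groups overlapped, and the interval of the log2 fold change ran from -0.23 to 0.24.

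The enzymes that follow, up to lanosterol, had log2 fold changes above 0 and did not pass. Idi1, the isomerase of the isoprene unit, had a log2 fold change of 0.23 (interval -0.07 to 0.53), and Fdps, farnesyl diphosphate synthase, of 0.15 (-0.09 to 0.40). Fdft1, squalene synthase, had 0.23 (-0.10 to 0.57) and Sqle, squalene epoxidase, 0.21 (-0.09 to 0.50). Lss, which closes squalene epoxide to lanosterol, was the lowest gene of the arm at 0.765, 0.761 and 1.07 FPKM in Aa-flox and 0.989, 1.03 and 1.4 FPKM in Aa-cko (log2 0.19, interval -0.12 to 0.51). The groups of all these genes overlapped. Exons of Fdft1 overlap those of Ctsb on the opposite strand, and Fdps shares exons with the annotated gene Gm43738, and whether counting used strand is not given in the sources used here.

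Among the enzymes that trim lanosterol to cholesterol, Cyp51, Ebp and Sc5d were higher in Aa-cko. Cyp51, lanosterol demethylase, on chromosome 5 from 4081145 to 4104746 (minus strand), was nearly constant in Aa-flox at 17.3, 17.3 and 17.2 FPKM and read 25.7, 20.7 and 24.1 FPKM in Aa-cko (1.36-fold, log2 0.42 ± 0.11, limma adjusted p = 0.0136). Ebp, the sterol isomerase named after the drug emopamil, on chromosome X from 8185329 to 8193512 (minus strand), read 21, 17.7 and 17.0 FPKM in Aa-flox and 24.9, 26.6 and 24.3 FPKM in Aa-cko (1.36-fold, log2 0.43 ± 0.11, limma adjusted p = 0.0127). Sc5d, lathosterol desaturase, on chromosome 9 from 42251595 to 42264256 (minus strand), read 15.4, 16.0 and 18.7 FPKM in Aa-flox and 21.8, 19.2 and 23.6 FPKM in Aa-cko (1.29-fold, log2 0.35 ± 0.12, limma adjusted p = 0.0418). The groups of all 3 were apart, by the smallest margin for Sc5d. These calls were less firm: that of Cyp51 ended without Aa-cko replicate 1 (adjusted p = 0.0736), that of Ebp without Aa-flox replicate 2 or 3 (0.0511 and 0.0524), and that of Sc5d without any 1 of Aa-flox replicates 1 and 2 and Aa-cko replicates 1 and 3 (0.104 to 0.126). Scaling each library to the same sum also ended the calls of Cyp51 (adjusted p = 0.0796) and Sc5d (0.202), and testing without the filter ended that of Sc5d (0.0718). Exons of Cyp51 overlap those of Akap9 on the opposite strand.

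The other late enzymes did not pass. Msmo1, the methylsterol oxidase, came nearest, at 21.9, 20.7 and 22.9 FPKM in Aa-flox and 26.7, 25.0 and 26.8 FPKM in Aa-cko, with groups apart (log2 0.25 ± 0.10, limma adjusted p = 0.0625). Nsdhl, a sterol dehydrogenase of the same demethylation steps, also had groups apart, with 4.66 to 5.29 FPKM in Aa-flox and 5.51 to 7.37 FPKM in Aa-cko (log2 0.30, adjusted p = 0.103). Tm7sf2, a sterol reductase, had the widest interval, from -0.10 to 0.86, and its 3 Aa-flox libraries ran from 0.901 to 2.60 FPKM. Its exons also overlap those of Vps51 on the same strand. Hsd17b7, the ketosteroid reductase of the pathway, and Dhcr7, the reductase of the last step, had log2 fold changes of -0.03 and -0.14 with intervals of -0.42 to 0.36 and -0.48 to 0.20.

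**Figure D2:**
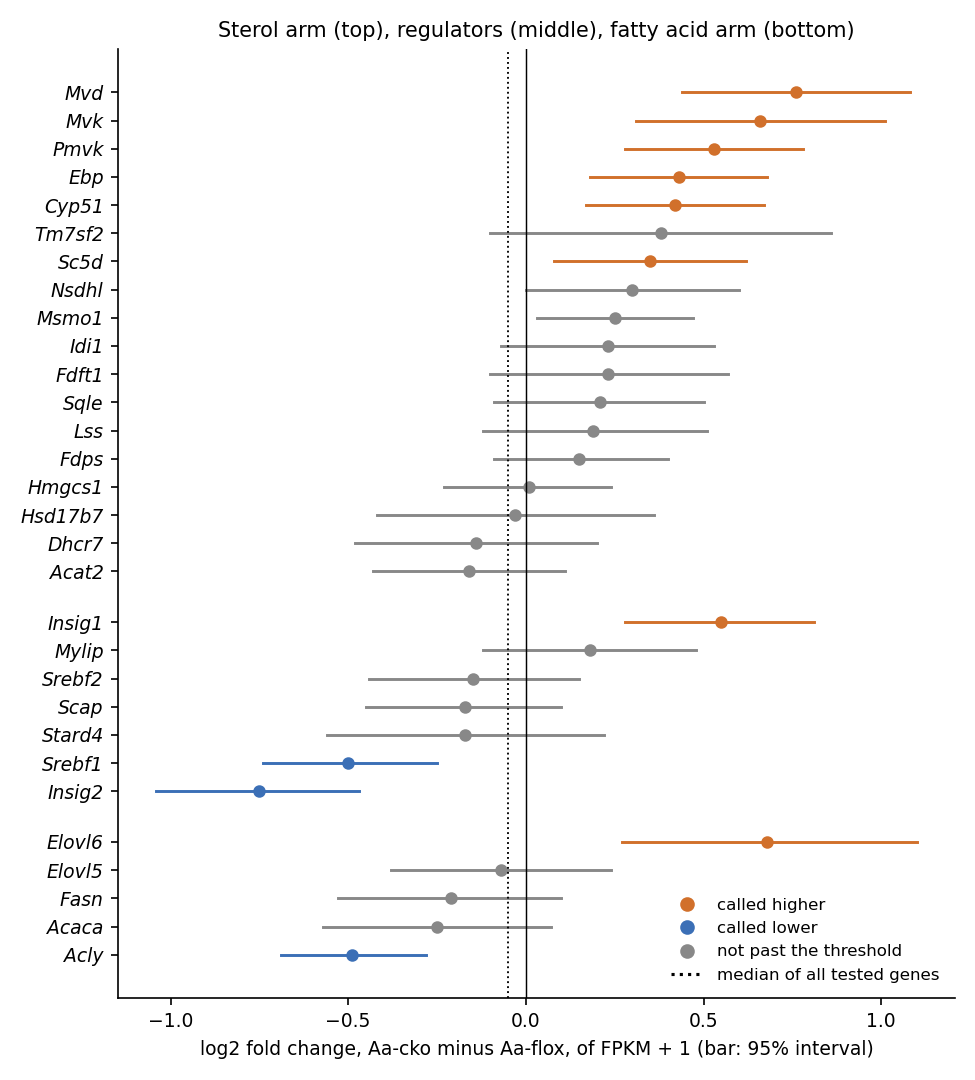
Log2 fold change of FPKM + 1 (Aa-cko minus Aa-flox) of the 30 tested genes with 95% intervals from limma, sterol arm on top, regulators in the middle, fatty acid arm below; the dotted line is the median of all tested genes, -0.05. In the sterol arm 15 of 18 points lie above 0, and the called falls are Insig2, Srebf1 and Acly.

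Insig1 and Insig2 moved in opposite directions. They encode membrane proteins that hold the SCAP and SREBP complex in the endoplasmic reticulum. Insig1, itself a known SREBP target, lies on chromosome 5 from 28071363 to 28078662 (plus strand) and read 23.1, 24.2 and 28.2 FPKM in Aa-flox and 36.0, 33.5 and 42.1 FPKM in Aa-cko. All Aa-cko libraries were above all Aa-flox libraries (1.48-fold, log2 0.55 ± 0.12, limma adjusted p = 0.00556). Insig2, on chromosome 1 from 121304353 to 121332589 (minus strand), was nearly constant in Aa-flox at 13.2, 13.3 and 13.1 FPKM and fell to 7.24, 8.69 and 6.53 FPKM in Aa-cko. The mean in Aa-cko was 0.566 of that in Aa-flox (log2 -0.75 ± 0.13, limma adjusted p = 0.00142), the largest called fall among the members. Within a library the ratio of Insig1 to Insig2 was 1.75, 1.82 and 2.14 in Aa-flox and 4.97, 3.86 and 6.46 in Aa-cko. Such ratios do not depend on how a library is scaled, and the pairs were chosen after their values were seen. Insig1 and Insig2 each lay apart in opposite directions, so the groups of this ratio had to lie apart too. An exact two-sided permutation test over the 6 libraries was therefore bound to give p = 0.1 for it, the smallest value that 3 against 3 allows.

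Of the transcription factor genes Srebf1 was lower in Aa-cko and Srebf2 did not pass. Srebf1 lies on chromosome 11 from 60199089 to 60222581 (minus strand) and fell from 26.1, 22.0 and 25.5 FPKM in Aa-flox to 17.8, 16.0 and 17.4 FPKM in Aa-cko, with no overlap (0.696 of the Aa-flox mean, log2 -0.50 ± 0.11, limma adjusted p = 0.00569). Gene-level FPKM does not separate its SREBP-1a and SREBP-1c transcripts, and its exons overlap those of Rai1 on the opposite strand. Srebf2, the most abundant regulator, read 49.7, 41.3 and 43.6 FPKM in Aa-flox and 38.4, 35.0 and 48.9 FPKM in Aa-cko. Its groups overlapped, with Aa-cko replicate 3 near the top (log2 -0.15, interval -0.44 to 0.15). The ratio of Srebf1 to Srebf2 was 0.525, 0.533 and 0.584 in Aa-flox and 0.464, 0.456 and 0.357 in Aa-cko, again with no overlap and with the smallest exact two-sided permutation p of 0.1. Scap, the escort of both factors, Stard4, a sterol transfer protein, and Mylip, a sterol-responsive ubiquitin ligase, did not pass. Their log2 fold changes were -0.17 (interval -0.45 to 0.10), -0.17 (-0.56 to 0.22) and 0.18 (-0.12 to 0.48). The calls of Insig1, Insig2 and Srebf1 held in every alternative tried.

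**Figure D3:**
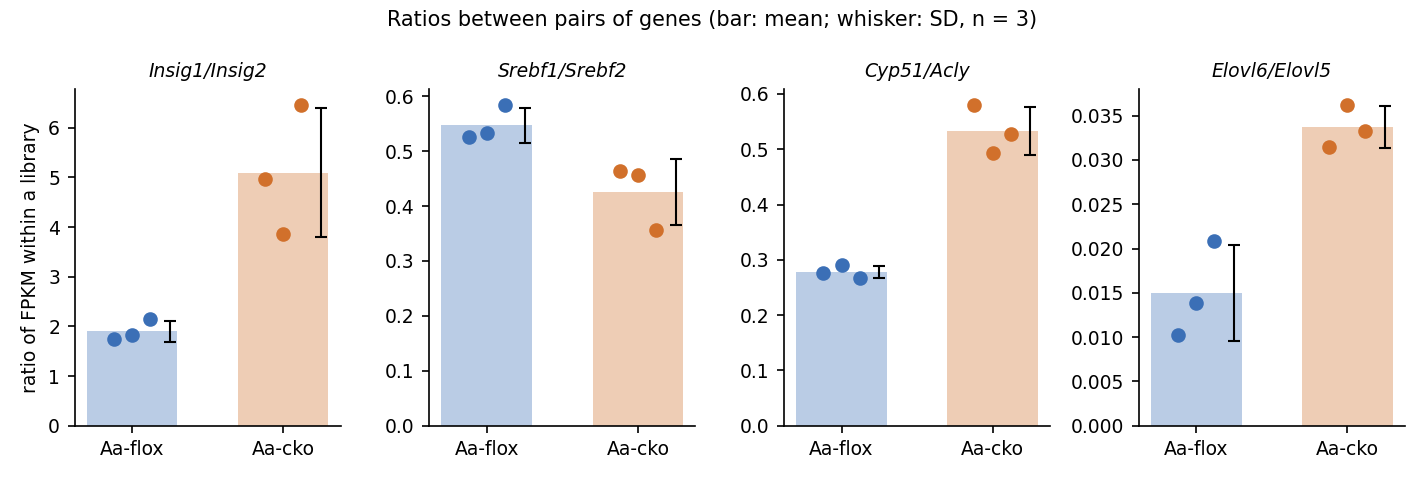
Ratio of FPKM between pairs of genes within each library; points are libraries, bars are group means and whiskers the SD of 3 libraries. Insig1/Insig2 lies between 1.75 and 2.14 in Aa-flox and between 3.86 and 6.46 in Aa-cko, and none of the 4 ratios overlaps between groups. The pairs were chosen after their values were seen.

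The fatty acid arm held 1 called fall and 1 called rise. Acly, ATP citrate lyase, the source of cytosolic acetyl-CoA for both arms, lies on chromosome 11 from 100476353 to 100528000 (minus strand). It fell from 62.4, 59.7 and 64.0 FPKM in Aa-flox to 44.3, 42.0 and 45.6 FPKM in Aa-cko, with tight groups far apart (0.709 of the Aa-flox mean, log2 -0.49 ± 0.09, limma adjusted p = 0.00235), and the call held in every alternative tried. Acaca, acetyl-CoA carboxylase, read 3.86, 3.48 and 4.42 FPKM in Aa-flox and 3.11, 2.69 and 3.64 FPKM in Aa-cko (log2 -0.25, interval -0.57 to 0.07). Fasn, fatty acid synthase, read 10.2, 7.74 and 9.31 FPKM in Aa-flox and 7.80, 6.63 and 8.62 FPKM in Aa-cko (log2 -0.21, interval -0.53 to 0.10). Both overlapped between groups and did not pass, so a fall of the size seen for Acly lies within their intervals, as does no change.

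The elongases differed from each other. Elovl5, which elongates polyunsaturated fatty acids, was the most abundant of all members at 69.0, 70.0 and 85.6 FPKM in Aa-flox and 74.8, 58.3 and 81.1 FPKM in Aa-cko, with overlapping groups (log2 -0.07, interval -0.38 to 0.24). Elovl6, which elongates palmitate, lies on chromosome 3 from 129532355 to 129638495 (plus strand) and stood far lower. It read 0.703, 0.965 and 1.79 FPKM in Aa-flox and 2.36, 2.12 and 2.70 FPKM in Aa-cko, a 2.08-fold higher mean (log2 0.68 ± 0.18, limma adjusted p = 0.0145). At the approximate depth these values rest on about 73.1 to 283 fragments a library. Aa-flox replicates 1 and 2 were under 1 FPKM for Elovl6, so it met the filter through its Aa-cko libraries. Without the filter its limma adjusted p was 0.0401. The call of Elovl6 ended without Aa-flox replicate 1 (adjusted p = 0.0573) or 2 (0.0512), and an antisense gene overlaps its exons. The ratio of Elovl6 to Elovl5 was 0.0102, 0.0138 and 0.0209 in Aa-flox and 0.0315, 0.0362 and 0.0333 in Aa-cko, without overlap. Me1, the malic enzyme that supplies NADPH, stayed under 1 FPKM in all libraries, at 0.486 to 0.558 in Aa-flox and 0.510 to 0.846 in Aa-cko.

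Set side by side, the libraries of the groups did not overlap in the mean level of the sterol arm and overlapped in that of the fatty acid arm. Averaged over its 18 genes and relative to their mean over the 6 libraries, log2(FPKM + 1) of the sterol arm was -0.10, -0.15 and -0.15 in Aa-flox and 0.11, 0.11 and 0.17 in Aa-cko. Its summed level was 210, 199 and 208 FPKM in Aa-flox and 252, 251 and 257 FPKM in Aa-cko. The same mean over the 6 fatty acid genes was -0.03, -0.07 and 0.15 in Aa-flox and -0.02, -0.12 and 0.10 in Aa-cko, with overlap. The summed level of the fatty acid arm was 147, 142 and 166 FPKM in Aa-flox and 133, 113 and 142 FPKM in Aa-cko. The ratio of Cyp51 to Acly was 0.277, 0.290 and 0.268 in Aa-flox and 0.580, 0.493 and 0.527 in Aa-cko. That pair, a called rise over a called fall, was chosen after its values were seen. Its ratio had to lie apart and does not stand for the arms. These values over the members are descriptions without a test. The median of the sterol arm stayed above that of the fatty acid arm under every scaling tried. It was 0.18 against -0.24 with each library scaled to the same sum and 0.37 against -0.09 with upper quartile scaling. These scalings moved the median of all tested genes from -0.05 to -0.13 and 0.07. With each library scaled to the same sum 11575 genes passed the filter, Me1 among them, so those medians cover a larger set of genes.

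**Figure D4:**
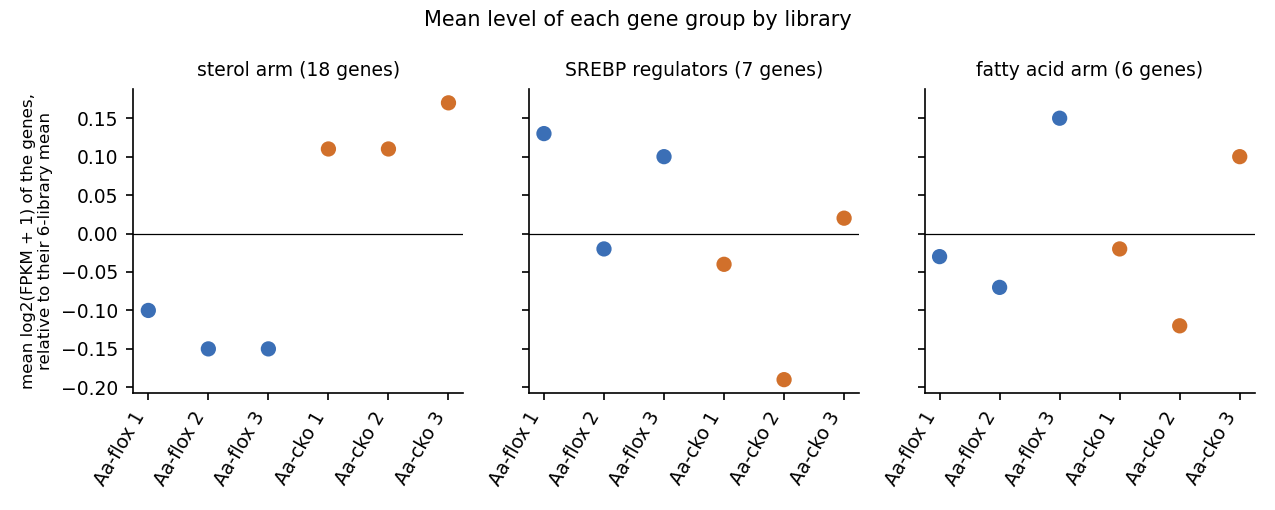
Mean log2(FPKM + 1) of the genes of each group in each library, relative to each gene's mean over the 6 libraries. The sterol arm lies at or below -0.10 in the 3 Aa-flox libraries and at or above 0.11 in the 3 Aa-cko libraries, while the other groups of genes overlap.

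Promoters of the members were compared for motifs of factors known to act at sterol genes. RefSeq promoters (assembly GRCm38.p6, 250 bases before to 50 after a start) were found for 27 of the 31 members. The NF-Y box CCAAT, bound by a factor known to act beside SREBP at sterol genes, was found on either strand in 14 of 15 sterol arm genes (93.3%), in 5 of 6 regulators and in 4 of 6 fatty acid genes. It was present in 43.3% of the tested genes in the promoter table and in 37.4% of all its promoters. Acaca counts as without the box, but its only promoter here (chr11:84195188-84195437) lies inside the gene, which starts at 84129672. Dhcr7 and Me1 count as with the box only through promoters inside their genes (chr7:143829964-143830213 and chr9:86687278-86687527). Their other promoters lack it. The GC box GGGCGG, a site of SP factors, was in 14 of 15 sterol arm genes and in 68.7% of tested genes. The E-box CACGTG was in 3 of 15 sterol arm genes and in 12% of tested genes. The sterol regulatory element core TCACNCCAC was in Hmgcs1 alone among the members, and in 1.32% of tested genes. This strict spelling misses variant elements, and a match or its absence is a description of letters only. A CCAAT box read on the other strand can share letters with an adjoining GC box.

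A few promoters are printed to show these elements, each 5′ to 3′ on the strand of its gene and ending just before the start of the transcript, with CCAAT boxes (ATTGG on the other strand) and the sterol element core in capitals. Hmgcs1 (chr13:119690101-119690350, plus strand) is shown for its sterol element, Mvk (chr5:114444019-114444268, plus), Mvd (chr8:122443423-122443672, minus) and Ebp (chrX:8193513-8193762, minus) as called rises of the arm, and Insig1 (chr5:28071162-28071362, plus) and Insig2 (chr1:121332590-121332839, minus, its outermost start) as the pair that moved apart.
Hmgcs1: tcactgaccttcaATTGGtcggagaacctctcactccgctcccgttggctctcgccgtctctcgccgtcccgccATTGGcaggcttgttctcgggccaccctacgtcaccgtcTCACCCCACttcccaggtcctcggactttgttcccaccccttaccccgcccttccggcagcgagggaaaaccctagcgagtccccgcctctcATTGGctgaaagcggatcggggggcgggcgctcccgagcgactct
Mvk: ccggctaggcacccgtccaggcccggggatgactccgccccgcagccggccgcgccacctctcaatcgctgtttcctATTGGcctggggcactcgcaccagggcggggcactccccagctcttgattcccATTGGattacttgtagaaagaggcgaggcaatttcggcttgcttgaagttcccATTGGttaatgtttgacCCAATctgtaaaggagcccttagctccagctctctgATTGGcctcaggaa
Mvd: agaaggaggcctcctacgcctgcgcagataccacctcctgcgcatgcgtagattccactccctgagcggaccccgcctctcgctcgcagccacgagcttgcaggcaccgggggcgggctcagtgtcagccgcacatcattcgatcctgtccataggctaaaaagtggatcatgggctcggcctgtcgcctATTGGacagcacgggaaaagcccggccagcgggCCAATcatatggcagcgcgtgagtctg
Ebp: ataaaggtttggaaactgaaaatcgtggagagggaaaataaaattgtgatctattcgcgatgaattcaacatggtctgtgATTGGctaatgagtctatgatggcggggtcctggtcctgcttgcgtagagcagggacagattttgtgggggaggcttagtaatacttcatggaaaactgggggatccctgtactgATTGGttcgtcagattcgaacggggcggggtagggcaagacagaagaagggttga
Insig1: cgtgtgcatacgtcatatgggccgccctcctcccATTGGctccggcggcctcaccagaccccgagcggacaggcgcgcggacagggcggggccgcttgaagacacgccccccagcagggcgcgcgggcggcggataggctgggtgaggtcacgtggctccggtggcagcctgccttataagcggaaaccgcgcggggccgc
Insig2: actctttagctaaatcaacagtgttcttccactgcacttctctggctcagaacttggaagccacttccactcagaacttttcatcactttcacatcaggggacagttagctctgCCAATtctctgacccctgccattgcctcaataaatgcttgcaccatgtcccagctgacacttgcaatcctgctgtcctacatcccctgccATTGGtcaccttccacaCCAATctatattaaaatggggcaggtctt
In these windows Mvk holds 5 boxes, Mvd and Ebp hold 2 each, and Hmgcs1, whose groups overlapped, holds 3 boxes and the sterol element. Insig1 holds 1 and the printed outermost start of Insig2 holds 3. The promoters of the other Insig2 starts hold 0, and which start was used was not determined.

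Fold changes also followed exon length in these libraries, and the called rises of the sterol arm include its shortest genes. Over all tested genes the median log2 fold change was 0.13 in the shortest of 4 equal length classes (up to 2692 bases) and -0.18 in the longest (from 6723 bases), and 27.4% and 11.2% were called higher. Pmvk, Mvd, Ebp, Acat2 and Mvk, at 1713 to 2675 bases, lie in the shortest class, and Fasn, Acaca, Srebf2, Scap and Lss in the longest. In Aa-cko replicate 2 the short genes stood higher than in the other Aa-cko libraries, with a median difference of log2 0.18 in the shortest class and -0.26 in the longest. The same difference was log2 0.38 for Mvd and 0.25 for Mvk. With a length trend removed from each library, an alternative chosen after seeing the data, 8 sterol genes were higher and 0 lower, the median of the sterol arm was 0.33, and that of the fatty acid arm rose to -0.04. Lss then passed (log2 0.37, limma adjusted p = 0.0355), as did Msmo1 (0.37, adjusted p = 0.00567), and all 11 called members stayed called. Without Aa-cko replicate 2, 6 sterol genes were higher.

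**Figure D5:**
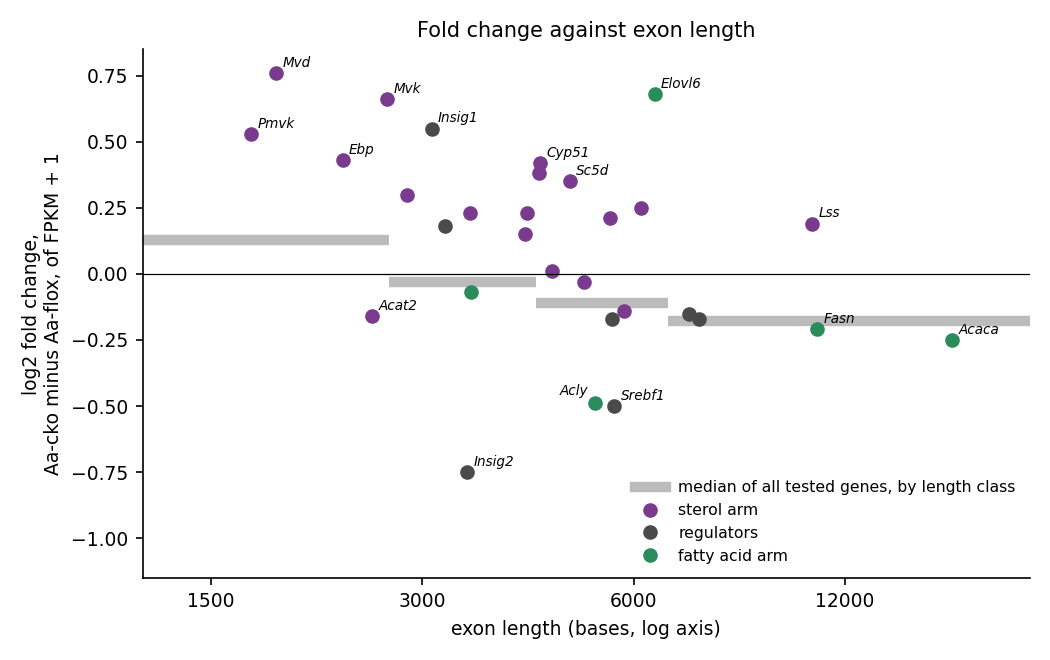
Log2 fold change of FPKM + 1 (Aa-cko minus Aa-flox) of the 30 tested genes against exon length in bases (log axis), with the median of all tested genes in each of 4 length classes as grey bars. The grey bars step down from 0.13 to -0.18, Mvd, Mvk, Pmvk and Ebp lie above them at the short end, and Acly, Srebf1 and Insig2 lie below them.

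Markers of cell types moved with the groups, and their part in these results was not tested. In bulk RNA, fewer cells of a type and less RNA per cell cannot be told apart. All 10 macrophage markers were higher in Aa-cko, with a summed level of 3014 to 3550 FPKM in Aa-flox and 7606 to 10210 in Aa-cko, and all 8 B cell markers were higher (72.6 to 96.2 against 172 to 216 FPKM). Of 10 T cell markers 7 were lower and 0 higher (1678 to 2083 against 888 to 940 FPKM), and all 10 proliferation markers were lower (403 to 451 against 200 to 233 FPKM). Of 8 markers of group 2 innate lymphoid cells 4 were higher and 3 lower (275 to 292 against 176 to 212 FPKM), and of 8 neutrophil markers 6 were higher (2721 to 3457 against 3512 to 5158 FPKM). Markers of cells known for lipid synthesis were mostly low, except Fabp4. The 7 type 2 alveolar cell markers summed to 9.27 to 12 FPKM in Aa-flox and 14.1 to 17.2 in Aa-cko, with 3 of 5 tested higher. The 7 adipocyte markers summed to 39.7 to 53.7 FPKM in Aa-flox and 77.1 to 109 in Aa-cko, most of it Fabp4 (means 44.6 and 86.7 FPKM). Of them only Cidec and Fabp4, the latter also known in macrophages, were tested, and both were higher. Lep was at 0 in all libraries and Adipoq at or below 0.191 FPKM.

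The other sterol genes were called in both directions at shares near those of all tested genes. Of 27 tested genes for sterol uptake, transport, SREBP processing and oxysterols 7 were higher (25.9%, against 19.2% of all tested genes) and 5 lower (18.5%, against 23.2%), with a median of -0.01. Npc1 and Npc2, which move cholesterol out of lysosomes, were higher by log2 0.57 and 0.62 (limma adjusted p = 0.00526 and 0.0033), and Nr1h3, the sterol-activated nuclear receptor LXR alpha, by 0.71 (adjusted p = 0.00282). The lower genes, named after their values were seen, were Lbr, a sterol reductase of the nuclear envelope (log2 -0.56, limma adjusted p = 0.0112), Osbp, an oxysterol-binding protein (-0.50, 0.0102), Mbtps1, the protease that first cuts SREBPs (-0.34, 0.0446), Nr1h2, LXR beta (-0.32, 0.0411), and Pgrmc1, a partner of Cyp51 (-0.27, 0.0433). Only 2 falls were called with median ratio or upper quartile scaling, without the filter, without trend and robust moderation, or without Aa-flox replicate 1, Aa-flox replicate 3 or Aa-cko replicate 1, and 3 without Aa-flox replicate 2 or Aa-cko replicate 3.

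Of 17 tested genes beside the fatty acid arm 3 were higher and 3 lower (17.6% each, against 19.2% and 23.2% of all tested genes), with a median of 0.06. Scd1, the desaturase that makes oleate, read 9.05, 13.5 and 11.2 FPKM in Aa-flox and 33.3, 24.7 and 29.7 FPKM in Aa-cko (log2 1.31 ± 0.16, limma adjusted p = 0.000267), a larger rise than that of any member. Fads1 and Fads2, the desaturases of polyunsaturated fatty acids, fell by 0.62 and 0.74 on the log2 scale, and Mlx, the partner of the glucose-sensing factor ChREBP, fell by 0.61. Slc25a1, the carrier that exports from mitochondria the citrate that Acly uses, was higher (log2 0.36, adjusted p = 0.0393) while Acly was lower, and Elovl1, an elongase of saturated very long chains, was higher (log2 0.46, adjusted p = 0.0179).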

How the data were processed

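The authors deposited 1 table of FPKM values per gene for 6 mouse libraries, per the file headers. The submitters' processing notes name mm10 as the build. Libraries were made from total RNA with a SMARTer mRNA-Seq kit, per the labels' protocols; their aligner, counter and gene annotation: not given in the sources used here. Groups and columns were assigned by name. Since the values are FPKM, no count test was run, and depth was inferred from the number of fragments that makes low values whole.

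Group differences (Aa-cko minus Aa-flox) were fitted on log2(FPKM + 1) using limma 3.58.1 (R 4.3.3), a scale that understates the change of low genes, with an intensity trend and robust moderation, over the 10849 genes that reached 1 FPKM in 3 or more libraries. The Benjamini-Hochberg adjustment ran over all of these, and errors are standard errors. The fit was tested on simulated data. Positions and exon lengths come from GENCODE M21 on the same assembly, and promoters from RefSeq. Pearson correlations within a group were 0.992 to 0.996, and no libraries were identical. The labels share replicate numbers but do not say that these pair samples, so no block was used. Correlations of deviations between libraries cannot settle pairing, since deviations were taken from each group's own mean of 3.

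Alternatives covered pseudocount, filters, scaling, moderation, threshold, a replicate block, leaving out each library and, chosen after seeing the data, trends with length and GC content. The members, gene lists and motifs were chosen with earlier results of these data known. All members are described; of the other pathway lists, the 4 called genes with the smallest p in each list are named, except items that are not reported here, and further names were chosen after their values were seen. Python 3.11.15, pandas 2.3.3 and matplotlib 3.10.9 were used for tables and plots.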

Additional observations from a re-analysis of the deposited data

How the results depend on the processing

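Mvk, Pmvk, Mvd, Insig1, Insig2, Srebf1 and Acly kept their call in all 17 alternatives; Cyp51, Ebp, Elovl6 and Sc5d did not. The cause was not tested where a value moved. The sterol arm held 6 called rises, 3 at an adjusted p under 0.01, 4 as TPM, 9 with upper quartile scaling or without the GC trend, and 4 to 6 with single libraries left out; its median of 0.24 became 0.30 with a pseudocount of 0.1, 0.37 with upper quartile scaling, 0.18 as TPM, 0.33 and 0.36 without length and GC trends, and 0.25 to 0.29 with libraries left out. Lss fell below the filter without Aa-flox replicate 3, Aa-cko replicate 2 or Aa-cko replicate 3, so the sterol medians of those fits omit it. The fatty acid median of -0.21 became -0.09 with upper quartile scaling and -0.04 without the length trend. The 1 called rise of that arm, Elovl6, became 0 under 0.01 and 0 to 1 with libraries left out. Of the other sterol genes 4 rises and 0 falls passed 0.01, and falls numbered 2 with median ratio or upper quartile scaling, no filter, or no trend and no robust moderation, and 2 to 4 with libraries left out; other fatty acid rises were 1 under 0.01 and 1 to 4 with libraries left out. Under 0.01, 1269 genes were higher and 1479 lower, against 2087 and 2515.

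Small uncalled values changed sign: Hmgcs1 (0.01) to -0.09 as TPM and -0.07 to 0.05 with libraries left out; Hsd17b7 (-0.03) to 0.06 with upper quartile scaling, 0.06 and 0.09 without length and GC trends, and -0.23 to 0.10 with libraries left out; Elovl5 (-0.07) to 0.06 with upper quartile scaling, 0.04 without the GC trend, and -0.17 to 0.06 with libraries left out. With a replicate block 7 sterol genes were higher, Msmo1 joining (log2 0.25, limma adjusted p = 0.0419), and the other calls of members held. Same-numbered libraries had deviations correlated at -0.018, 0.188 and 0.522, and differently numbered ones at -0.5 to 0.365. Without the filter Me1 was tested and did not pass (log2 0.14, limma adjusted p = 0.407), and the same held as TPM (log2 0.14, limma adjusted p = 0.539). Depth limits Lss, Hsd17b7, Elovl6, Tm7sf2 and Me1, whose lowest libraries rest on about 133, 98.9, 73.1, 69.2 and 27.9 fragments.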
